A study of Mus musculus with 32 samples.

Results

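The expression of 10 genes of MHC class I antigen presentation, the route by which a cell shows fragments of its own proteins to CD8+ T cells, was followed in 32 primary mouse melanomas. The 10 genes were picked by symbol as the central parts of the route: H2-K1, H2-D1, B2m, Tap1, Tap2, Tapbp, Psmb8, Psmb9, Psmb10 and Nlrc5. Each symbol matched 1 Ensembl identifier among the 50600 gene rows of the tables, and all 10 had enough reads in these tumours to be tested. The tumours came from mice that carry the melanocyte-driven oncogene Tyr::NrasQ61K, 1 functional copy of the tumour suppressor Cdkn2a (Cdkn2a-/+) and floxed alleles of Cdh1 (Cdh1F/F), which encodes E-cadherin, a protein of cell adhesion, on a C57BL/6J background. Controls without Cre (°/°) are called Ecad, and mice in which a Cre under the tyrosinase promoter removes Cdh1 in the melanocyte lineage are called ΔEcad. The label of the ΔEcad tumours writes Tyr::NRAS/° at the place where the study's methods give Tyr::CreA/°. Each genotype was sampled in males and females, with 8 tumours in each of the 4 groups. The age of the mice was not given in the sources used here, and the tumours were collected once they reached a limit of size. Both the oncogene and the Cre act in the melanocyte lineage, so the other cells of a ΔEcad tumour keep Cdh1.

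Class I molecules consist of a heavy chain, encoded here by H2-K1 and H2-D1, and the light chain β2-microglobulin, encoded by B2m. Peptides are cut by the proteasome, whose catalytic subunits are exchanged for the products of Psmb8, Psmb9 and Psmb10 in the immunoproteasome. They are pumped into the endoplasmic reticulum by the transporter made of Tap1 and Tap2, and tapasin (Tapbp) links that transporter to the empty class I molecule. Nlrc5 is the transactivator of class I genes, which acts with the RFX and NF-Y factors at a conserved promoter module. Interferon-γ, secreted by T cells and natural killer cells, induces most of these genes, and tumours that lose them can escape CD8+ T cells.

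Sequencing depth was 24036333 to 63923086 counts assigned to genes per tumour (median 34684496). In 31 of 32 tumours the melanocytic genes were abundant, whereas in ΔEcad male 7 Dct stood at 4.98 TPM and Sox10 at 0.49 TPM. TPM is a read count scaled to gene length and to the total of the tumour. Levels of different genes can be compared only as far as the length used matches the transcripts present, which was not examined. The median of Cdh1 itself was 145 TPM in Ecad males and 3.28 TPM in ΔEcad males, and 30.6 TPM against 46.7 TPM in the females of these genotypes. Among females it did not separate the genotypes (fold change -0.0024 on the log2 scale, SE 0.87, adjusted p = 0.999 in edgeR), and in males the log2 fold change of -3.33 (SE 0.96) had an edgeR adjusted p of 0.365, so the genotypes rest on the labels. In the library labelled ΔEcad male 2, Xist stood at 6.41 TPM with none of the Y-linked genes Ddx3y, Eif2s3y and Uty, which goes against its label, and ΔEcad female 1 held 0.37 TPM of Ddx3y. ΔEcad female 3 had the lowest T cell, macrophage and endothelial marker scores of all tumours. The main calls are also given without these 4 tumours. In bulk tumour RNA, fewer cells of a type and less RNA per cell cannot be told apart.

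Of the 10 genes, 7 lie on chromosome 17, in or near the H2 complex, 2 lie on chromosome 8 and 1 on chromosome 2 (GENCODE vM21, GRCm38). H2-K1 spans 33996017 to 34000347 on the minus strand of chromosome 17 and H2-D1 spans 35262730 to 35267499 on its plus strand. Between them, Psmb9 (34181987 to 34187764, minus strand), Tap1 (34187553 to 34197225, plus strand), Psmb8 (34197721 to 34201454, plus strand) and Tap2 (34203527 to 34216321, plus strand) form 1 cluster, and Tapbp lies at 33915899 to 33929292 on the plus strand. B2m lies on chromosome 2 at 122147686 to 122153083 (plus strand), Psmb10 on chromosome 8 at 105935735 to 105938444 (minus strand) and Nlrc5 on chromosome 8 at 94434356 to 94527272 (plus strand). All 10 are annotated as protein-coding, with 4 to 52 separate exonic blocks. Tap1 and Psmb9 are read in opposite directions and share 212 exonic bases, and exons of other genes overlap 29.0% of the exonic bases of Tapbp, 18.5% of those of Tap2 and 14.7% of those of Psmb8. The kit kept the strand of the RNA, but it was not stated whether the counting used it. Of the words of 100 bases in the transcripts, 0.957% of those of H2-K1 and 3.59% of those of H2-D1 also occur in another gene, mostly in other class I heavy chain genes, and for these heavy chains reads may be split between copies.

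The promoters of the heavy chains and of B2m are shown because they carry the module at which Nlrc5 and interferon-responsive factors act, and the shared promoter of Tap1 and Psmb9 because 1 stretch serves both genes. The sequences are RefSeq's (GRCm38.p6), each printed in the direction of the first gene named. They cover chr17:34000348-34000527 (minus strand) for H2-K1, chr17:35262914-35263093 (plus) for H2-D1, chr2:122147507-122147686 (plus) for B2m and chr17:34187331-34187555 (plus) for the stretch between the starts of Tap1 and Psmb9. RefSeq places these starts at 34187556 and 34187330 and that of H2-D1 at 35263094, while GENCODE's outermost starts, given above, lie further upstream for all 3, so by GENCODE the H2-D1 stretch lies within the gene and the shared stretch within Psmb9. Capitals mark matches, on either strand, to an interferon regulatory factor core AANNGAAA, a κB-like site (GGG, 3 further bases, T, 1 further base and CC), a CCAAT box, and the pair of an X2 box and a Y box written as TGACG, 20 further bases and ATTGG, of which only the outer letters are in capitals.

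H2-K1: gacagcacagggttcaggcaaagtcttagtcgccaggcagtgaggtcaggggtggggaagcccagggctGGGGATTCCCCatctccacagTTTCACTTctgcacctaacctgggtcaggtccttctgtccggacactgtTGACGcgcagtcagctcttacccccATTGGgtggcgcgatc

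H2-D1: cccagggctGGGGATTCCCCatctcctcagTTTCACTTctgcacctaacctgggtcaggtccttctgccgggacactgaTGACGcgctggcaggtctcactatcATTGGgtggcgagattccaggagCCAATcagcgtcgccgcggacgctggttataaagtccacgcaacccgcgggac

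B2m: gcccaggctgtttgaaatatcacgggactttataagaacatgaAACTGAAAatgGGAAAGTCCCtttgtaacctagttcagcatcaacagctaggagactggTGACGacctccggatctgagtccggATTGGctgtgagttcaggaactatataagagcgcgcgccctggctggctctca

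Tap1 and Psmb9: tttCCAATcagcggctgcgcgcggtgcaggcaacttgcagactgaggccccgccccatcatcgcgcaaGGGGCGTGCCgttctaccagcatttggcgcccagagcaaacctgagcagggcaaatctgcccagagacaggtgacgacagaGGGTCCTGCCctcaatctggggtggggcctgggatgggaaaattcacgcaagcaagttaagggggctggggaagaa

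The heavy chain promoters were nearly the same over the stretch they share, with 107 of 120 aligned bases equal (89.2%). From the κB-like site onwards both hold GGGGATTCCCC, then TTTCACTT, then the X2 and Y pair, which lies at bases -41 to -12 before the start of H2-K1 and at -101 to -72 before that of H2-D1. B2m holds the same elements with the interferon core AACTGAAA first. RefSeq's table had a promoter for 8 of the 10 genes, all but Tap2 and Nlrc5. The X2 and Y pair was in 3 of these 8 (H2-K1, H2-D1 and B2m) and in 31 of the 32851 mouse promoters searched on both strands from 250 bases before to 50 after the start (0.0944%), which belong to 27 genes and include that of the class I heavy chain gene H2-M3. The interferon core was in the same 3 and in 23.9% of all promoters. The κB-like site was in those 3 and in the Tap1 and Psmb9 promoters, 5 of 8, against 17.4% of all. A CCAAT box, which overlaps the last letters of the pair, was in 6 of 8, with Tap1 and Psmb9 again counted apart, against 37.4% of all. The κB-like and paired patterns were chosen after these sequences had been read, and a match describes letters, not binding.

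H2-K1, a classical heavy chain that presents peptides to CD8+ T cells, ranged from 239 to 3991 TPM in Ecad males (median 633), from 170 to 2410.2 TPM in Ecad females (median 279), from 93.9 to 3658 TPM in ΔEcad males (median 648) and from 63.3 to 1673 TPM in ΔEcad females (median 716). The top tumour of each group was Ecad male 4, Ecad female 7, ΔEcad male 8 and ΔEcad female 2, and all groups overlapped. H2-D1, the other classical heavy chain of this strain, ranged from 519.9 to 4988 TPM in Ecad males (median 911), from 275 to 3268 TPM in Ecad females (median 639.6), from 245 to 6565 TPM in ΔEcad males (median 1085) and from 115 to 1747 TPM in ΔEcad females (median 981). Its top tumours were the same 4, and its groups overlapped as well. In every tumour H2-D1 was above H2-K1, with a ratio of H2-K1 to H2-D1 of 0.323 to 0.958 (median 0.583).

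B2m, the light chain shared by all class I molecules, was the most abundant of the 10 transcripts in all 32 tumours. It ranged from 1937 to 15402 TPM in Ecad males (median 2795), from 1316 to 6661 TPM in Ecad females (median 2617), from 1239.6 to 21656 TPM in ΔEcad males (median 2585) and from 793 to 5526 TPM in ΔEcad females (median 2949). The 4 medians lay close together and the groups differed mainly in their highest tumours, Ecad male 4 and ΔEcad male 8 above all.

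Tap1, a subunit of the peptide transporter, ranged from 7.49 to 185 TPM in Ecad males (median 22.1), from 2.46 to 71.4 TPM in Ecad females (median 8.76), from 2.47 to 73.5 TPM in ΔEcad males (median 22.6) and from 4.37 to 112 TPM in ΔEcad females (median 25.8). Ecad females had the lowest median, but Ecad female 7 stood among the high tumours of the other groups. Tap2, its partner, ranged from 20.04 to 256 TPM in Ecad males (median 46.7), from 4.45 to 134 TPM in Ecad females (median 31.8), from 5.54 to 107 TPM in ΔEcad males (median 42.9) and from 14.9 to 167 TPM in ΔEcad females (median 48.3). Tapbp, which holds class I molecules at the transporter, ranged from 59.1 to 838 TPM in Ecad males (median 90.3), from 54.3 to 180 TPM in Ecad females (median 74.4), from 59.4 to 218 TPM in ΔEcad males (median 135) and from 25.5 to 197 TPM in ΔEcad females (median 93.3). For Tapbp the spread in Ecad males came from Ecad male 4 at 838 TPM and Ecad male 6 at 406 TPM, which exceeded every tumour of the other groups.

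Psmb8, which replaces the constitutive proteasome subunit Psmb5, had the widest range of the 10 genes. It ranged from 17.4 to 383 TPM in Ecad males (median 28.5), from 2.16 to 189 TPM in Ecad females (median 13.2), from 6.98 to 159 TPM in ΔEcad males (median 45.02) and from 1.00 to 91.9 TPM in ΔEcad females (median 43.2). Psmb9, which replaces Psmb6, ranged from 3.88 to 102 TPM in Ecad males (median 9.23), from 0.83 to 58.6 TPM in Ecad females (median 4.00), from 1.31 to 45.4 TPM in ΔEcad males (median 12.97) and from 1.02 to 40.1 TPM in ΔEcad females (median 12.98). Psmb10, which replaces Psmb7, ranged from 31.7 to 389 TPM in Ecad males (median 69.9), from 18.8 to 222 TPM in Ecad females (median 38.7), from 24.3 to 134 TPM in ΔEcad males (median 81.7) and from 21.9 to 118 TPM in ΔEcad females (median 66.2). All 3 had their lowest median in Ecad females, and in that group Ecad female 7 was far above the other 7 tumours, whose highest values were 19.7 TPM for Psmb8 and 6.10 TPM for Psmb9.

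Nlrc5, the transactivator, was the least abundant of the 10 by its median, 6.94 TPM over all tumours. It ranged from 1.61 to 64.8 TPM in Ecad males (median 13.6), from 0.45 to 28.2 TPM in Ecad females (median 3.36), from 0.70 to 47.0 TPM in ΔEcad males (median 7.49) and from 1.10 to 39.2 TPM in ΔEcad females (median 11.7). Ecad male 4 and Ecad male 6 were again the top tumours, and every group reached down to below 2 TPM.

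**Figure D1:**
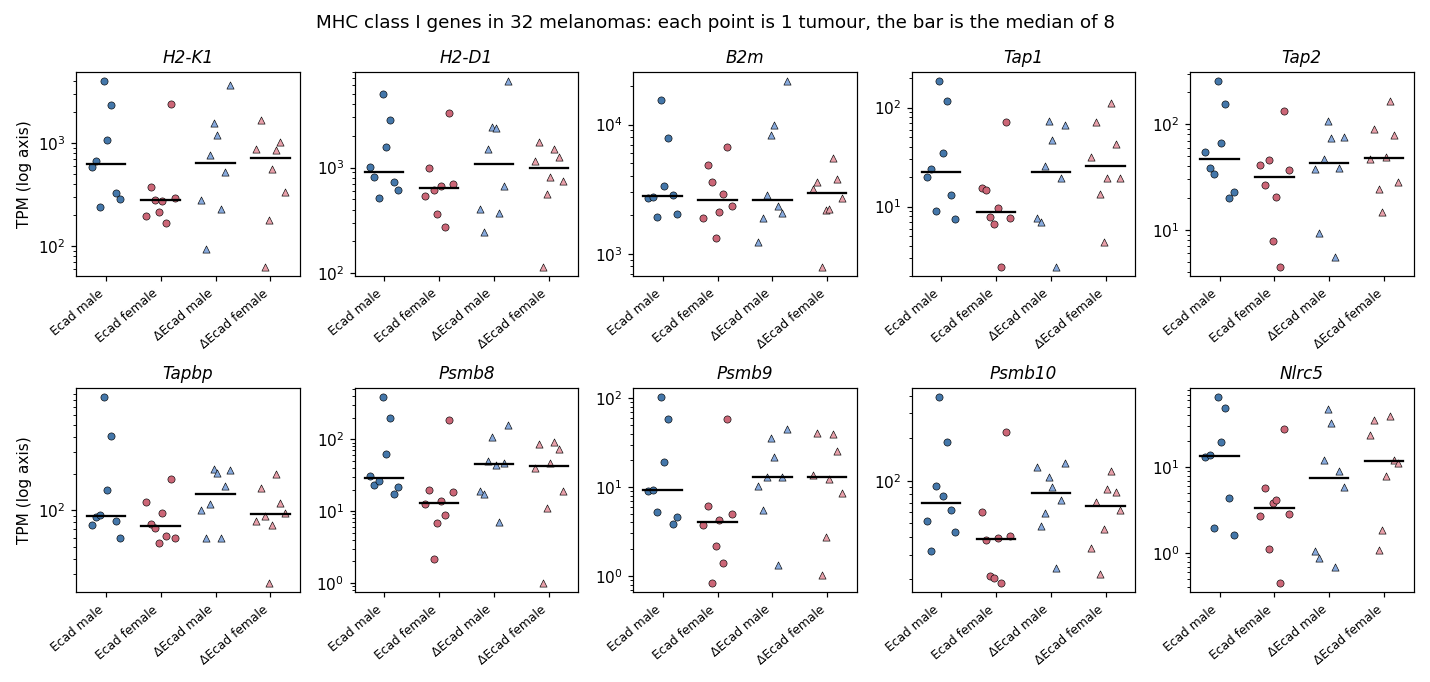
Level of each of the 10 genes in TPM (vertical axes, log scale) in the 32 tumours, as 1 point per tumour by group, with a bar at each group's median. The groups overlap for every gene, and single high tumours such as Ecad male 4 (383 TPM of Psmb8) and Ecad female 7 (189 TPM of Psmb8) stand above the rest of their groups.

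Set side by side per length, the order by median over the 32 tumours was B2m at 2795 TPM, H2-D1 at 774 TPM, H2-K1 at 454 TPM, Tapbp at 93.1 TPM, Psmb10 at 60.9 TPM, Tap2 at 39.9 TPM, Psmb8 at 24.8 TPM, Tap1 at 19.2 TPM, Psmb9 at 9.23 TPM and Nlrc5 at 6.94 TPM. The top of the order was nearly fixed, with B2m first and H2-D1 second in 32 of 32 tumours and H2-K1 above Tapbp in 31. Further down, neighbours changed places: Psmb10 was above Tap2 in 24 tumours, Tap2 above Psmb8 in 22 and Psmb9 above Nlrc5 in 20, so the order of these pairs was not shared by all tumours. Tap1 was above Psmb9 in 31 tumours. The order between genes rests on the gene lengths used for TPM.

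The genes varied widely between tumours. The highest level was 383 times the lowest for Psmb8, 144 times for Nlrc5 and 123 times for Psmb9, and at the other end 27.3 times for B2m and 20.7 times for Psmb10. On the log2 CPM scale (counts scaled to the total of the tumour times its TMM factor, with a prior count of 1), the SD over the 32 tumours was 0.96 for Tapbp to 1.94 for Nlrc5. The median over 13048 genes with at least 100 counts on average was 0.70, and 67.1% to 89.1% of those genes varied less than a given member. The same tumours were high for most of the genes. On that scale all 10 genes were above their medians in 10 tumours, namely Ecad males 4, 5 and 6, Ecad female 7, ΔEcad males 4, 5 and 8 and ΔEcad females 2, 6 and 7, so each group held at least 1. In TPM, Nlrc5 of ΔEcad male 8 was below the median, at 5.93. ΔEcad female 3 was lowest for H2-K1, H2-D1, B2m and Psmb8 among all 32, and had the lowest mean of the 10 standardized levels.

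**Figure D2:**
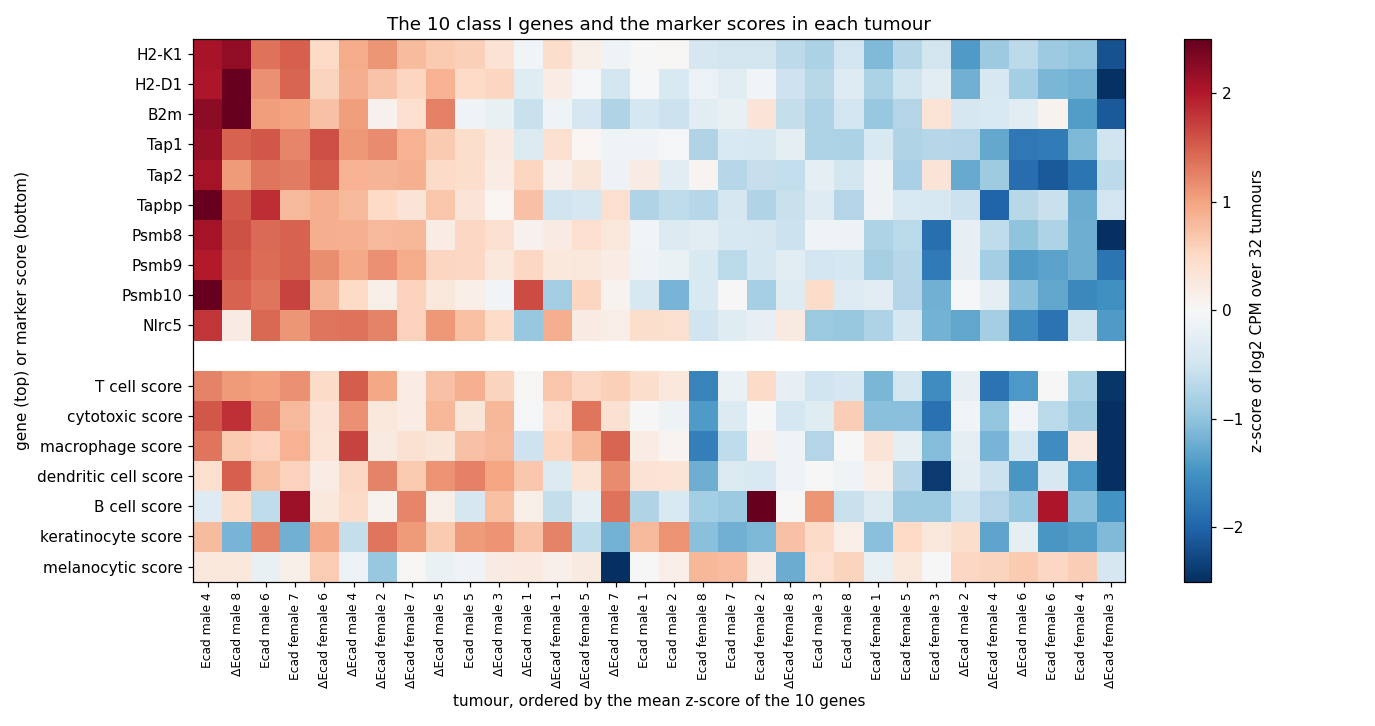
Standardized log2 CPM (colour, z-score over 32 tumours) of the 10 genes (upper rows) and of 7 cell type marker scores (lower rows) in the 32 tumours (columns, ordered by the mean over the genes and named by group). Ecad male 4 and ΔEcad male 8 are at the high end and ΔEcad female 3 at the low end, and tumours of all 4 groups are found on both sides.

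The first comparison asked whether removing E-cadherin changed the antigen presentation genes in females. None of the 10 genes was called, where a call needs a log2 fold change beyond 1 in either direction and an adjusted p under 0.05 in edgeR's quasi-likelihood test over 17717 genes, of which 1.2% were called (213 genes, against 1 to 1281 in other settings). None had an unadjusted p under 0.05 either, against 15.3% of all genes. Of the 10, 9 had a log2 fold change above 0 (median 0.37, against -0.02 over all genes, of which 48.4% were above 0), led by Nlrc5 at 1.36 (SE 0.85, edgeR adjusted p = 0.494) and Tap1 at 1.17 (SE 0.75, edgeR adjusted p = 0.504). B2m was at -0.15 (SE 0.56), and at 0.29 with limma voom. The 10 genes varied together across tumours, as given below, so their signs are not independent in this or the later comparisons. With T cell and macrophage scores as covariates, H2-K1 (-0.10), H2-D1 (-0.27) and Tapbp (-0.0560) were below 0, and Tapbp was so with keratinocyte and melanocytic scores as well (-0.19). For Tap1, 7 of 8 ΔEcad females were above the Ecad female median. The keratinocyte markers lay on the same side in this comparison (median log2 fold change 5.36, 5 of 5 above 0, smallest adjusted p 0.0686), with summed levels from 0.09 to 1690.5 TPM without Cre and from 1.67 to 31364 TPM with it. The cytotoxic markers (1.25, 4 of 5 above 0, 0.47 to 30.0 TPM summed without Cre and 0 to 34.5 TPM with it) and the fibroblast markers (1.22, 4 of 4 above 0) lay on that side too, and the B cell markers on the other (-2.37, 0 of 3 above 0). Medians of the dendritic cell (0.61), endothelial (0.66), T cell (0.31) and macrophage markers (0.13) were above 0, and that of the melanocytic markers below it (-0.68, 0 of 6 above 0). The part of these cells in the values of the 10 genes was not tested beyond the fits with scores as covariates.

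In males, no member was called either, and 0% of all genes were (21 genes with DESeq2). None of the 10 had an unadjusted p under 0.05, against 10.2% of all genes. The signs were mixed, with 3 genes above 0 and a median log2 fold change of -0.41 (0.11 over all genes, 59.1% of them above 0). B2m had the highest value at 0.64 (SE 0.56, edgeR adjusted p = 0.692) and Nlrc5 the lowest at -0.72 (SE 0.84, edgeR adjusted p = 0.769). Single tumours turned the directions: without Ecad male 4 all genes but Nlrc5 (-0.06) were above 0 and Psmb9 moved from -0.32 to 0.57, and without ΔEcad male 8 all 10 were below 0, with B2m moving from 0.64 to -0.26 and H2-D1 from 0.43 to -0.54. Medians of the T cell (0.33), cytotoxic (0.26), macrophage (0.71), dendritic cell (0.80) and B cell markers (1.11) were above 0 here. So were those of the fibroblast (0.90) and endothelial markers (0.19). The keratinocyte (-1.61, 0 of 5 above 0) and melanocytic markers (-0.16) had medians below 0. The part of these cells in the male values was not tested beyond the fits with scores as covariates.

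Between the sexes in Ecad tumours, all 10 genes had log2 fold changes below 0, meaning lower in females, from -0.54 for B2m to -1.71 for Nlrc5 (median -1.20, against 0.05 over all genes, of which 53.9% were above 0). As the genes varied together across tumours, these signs are not 10 independent results. None was called, against 0.0508% of all genes. Tapbp at -1.30 (SE 0.49, edgeR adjusted p = 0.177) and Tap1 at -1.55 (SE 0.75, edgeR adjusted p = 0.308) had an unadjusted p under 0.05, 2 of 10 genes against 16% of all. For H2-K1, Tap1, Tap2, Psmb8, Psmb9, Psmb10 and Nlrc5, 1 of 8 Ecad females was above the Ecad male median, and that tumour was Ecad female 7 each time. For H2-D1 it was 2, for Tapbp 3 and for B2m 4 of 8. With DESeq2, Tapbp came to -1.35 with an adjusted p of 0.0723, the smallest adjusted p of any member in any comparison and setting. Several marker lists lay on the same side in these groups. The T cell markers had a median log2 fold change of -1.19 (0 of 5 above 0), with summed levels of 2.31 to 39.9 TPM in males and 0.45 to 32.1 TPM in females, and the cytotoxic markers of -2.37 (1 of 5 above 0), with 5.68 to 150 TPM and 0.47 to 30.0 TPM. Keratinocyte markers had a median of -4.92, with 1.23 to 21007 TPM in males and 0.09 to 1690.5 TPM in females. The B cell markers (2.77, 3 of 3 above 0) and the melanocytic markers (0.29, 5 of 6 above 0) lay on the opposite side. When the T cell and macrophage scores entered the fit as covariates, the log2 fold changes of the 10 genes lay between -0.54 (Tapbp) and 0.25 (B2m), and those of H2-K1 (0.12), H2-D1 (0.23), B2m and Tap2 (0.13) were above 0. Without Ecad male 4, the values of all 10 genes were nearer to 0 or above it: Nlrc5 was at -1.03, Tap1 at -0.69, Tapbp at -0.40 (edgeR adjusted p = 0.630), H2-K1 at -0.33 and H2-D1 at -0.10, and B2m was at 0.17.

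Between the sexes in ΔEcad tumours, 0.0395% of all genes were called and no member was. B2m at -1.33 (SE 0.57, edgeR adjusted p = 0.539) was the 1 member with an unadjusted p under 0.05, against 8.81% of all genes. Of the 10, 7 were below 0 (median -0.56, against -0.06 over all genes, 45.1% of them above 0), with H2-D1 at -1.15 (SE 0.65), while Nlrc5 was at 0.37 (SE 0.84), Tap1 at 0.20 and Tap2 at 0.19. Without ΔEcad male 8, the tumour with the highest B2m and H2-D1, B2m moved from -1.33 to -0.38, H2-D1 from -1.15 to -0.13 and H2-K1 from -0.83 to 0.13. The keratinocyte markers (1.81, 5 of 5 above 0) and the endothelial markers (0.04, 3 of 4 above 0) had medians above 0 in this comparison. The T cell (-0.87), cytotoxic (-0.95) and macrophage markers (-1.13) had medians below 0, each with 0 of 5 above 0. Their summed levels were 0.61 to 62.4, 4.97 to 62.4 and 71.1 to 1375 TPM in males and 0 to 24.5, 0 to 34.5 and 26.9 to 734 TPM in females, and their part in the values of the 10 genes was not tested beyond the fits with scores as covariates.

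The interaction of genotype and sex, which asks whether the effect of Cdh1 loss differed between females and males, was called for no member and for 0% of all genes (1225 genes with DESeq2). No member had an unadjusted p under 0.05, against 17.7% of all genes. Nlrc5 had the highest value at 2.08 (SE 1.20, edgeR adjusted p = 0.372), followed by Tap1 at 1.75 (SE 1.05, edgeR adjusted p = 0.392), and 8 of 10 were above 0 (median 0.81, against -0.16 over all genes, 41.4% of them above 0). Without Ecad male 4, 4 of 10 were above 0, with Nlrc5 at 1.40 and Tap1 at 0.91, while H2-K1 (-0.48), Psmb10 (-0.35), Tapbp (-0.22) and Psmb8 (-0.0086) turned below 0. H2-K1 was also below 0 with T cell and macrophage scores as covariates (-0.28) and with keratinocyte and melanocytic scores (-0.0626). The keratinocyte markers had a median of 6.73 for the interaction (5 of 5 above 0), and their part was not tested beyond that fit. Medians of the cytotoxic (1.42), fibroblast (0.59), endothelial (0.48) and T cell markers (0.32) were above 0 as well. Those of the macrophage (-0.73), dendritic cell (-0.17), B cell (-3.54) and melanocytic markers (-0.90) were below 0. The SEs of the members, 0.48 to 1.21 over the 5 comparisons, give the approximate error of these values. Each SE was derived from the edgeR test, as the size of the log2 fold change divided by the square root of the F statistic. DESeq2, limma and all other settings called no member in any comparison.

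**Figure D3:**
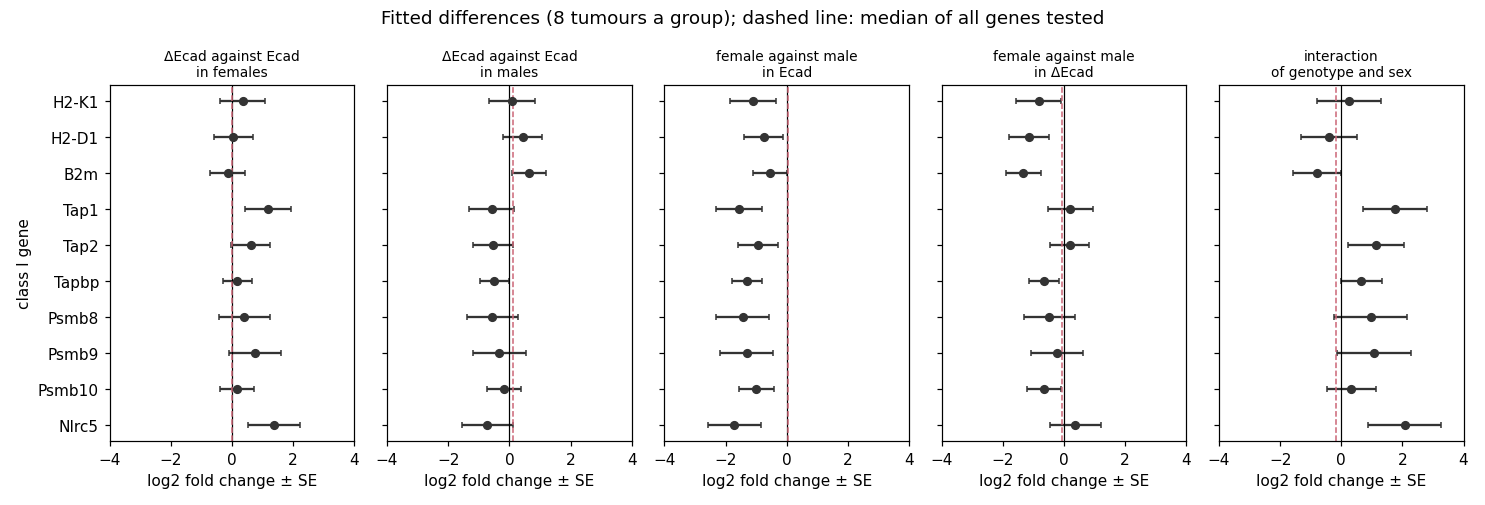
Log2 fold change of each of the 10 genes (points) with its SE (bars) in the 5 comparisons, from edgeR, with a solid line at 0 and a dashed line at the median of all genes tested. In Ecad tumours all 10 values for females against males are below 0, from -1.71 to -0.54, and none of the 50 values passes the call.

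Ratios within a tumour compare the genes with their partners and do not depend on the scaling between tumours. The absolute size of a TPM ratio also depends on the gene lengths used, so it is not a measured share of transcripts. In TPM, Psmb8 to Psmb5 had a median ratio of 0.111 (0.00544 to 1.60, above 1 in 1 tumour) and Psmb9 to Psmb6 of 0.0373 (0.00441 to 0.549, above 1 in 0 tumours). Psmb10 to Psmb7 had a median of 0.672 (0.164 to 4.17) and was above 1 in 10 tumours. The constitutive partners had narrower ranges, with Psmb5 at 133 to 405 TPM, Psmb6 at 126 to 474 TPM and Psmb7 at 48.0 to 190 TPM. Ecad male 4 had the highest value of all 3 ratios.

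By group, the median ratio of Psmb8 to Psmb5 was 0.126 in Ecad males against 0.0485 in Ecad females, and 0.230 in ΔEcad males against 0.175 in ΔEcad females. For H2-K1 to B2m, the heavy chain per light chain, it was 0.232 against 0.114 in Ecad and 0.179 against 0.205 in ΔEcad tumours. Of 25 tests of the 5 ratios (two-sided exact permutation tests over the splits of 16 tumours, and permutations of sex within genotype for the interaction), none passed after Benjamini-Hochberg adjustment. The smallest p was that of H2-K1 to B2m between the sexes in Ecad tumours, with a log2 difference of -0.78 (exact permutation p = 0.0476, adjusted p = 0.465), where 1 of 8 females was above the male median. For Psmb8 to Psmb5 the same comparison gave -1.59 (exact permutation p = 0.0842, adjusted p = 0.465).

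**Figure D4:**
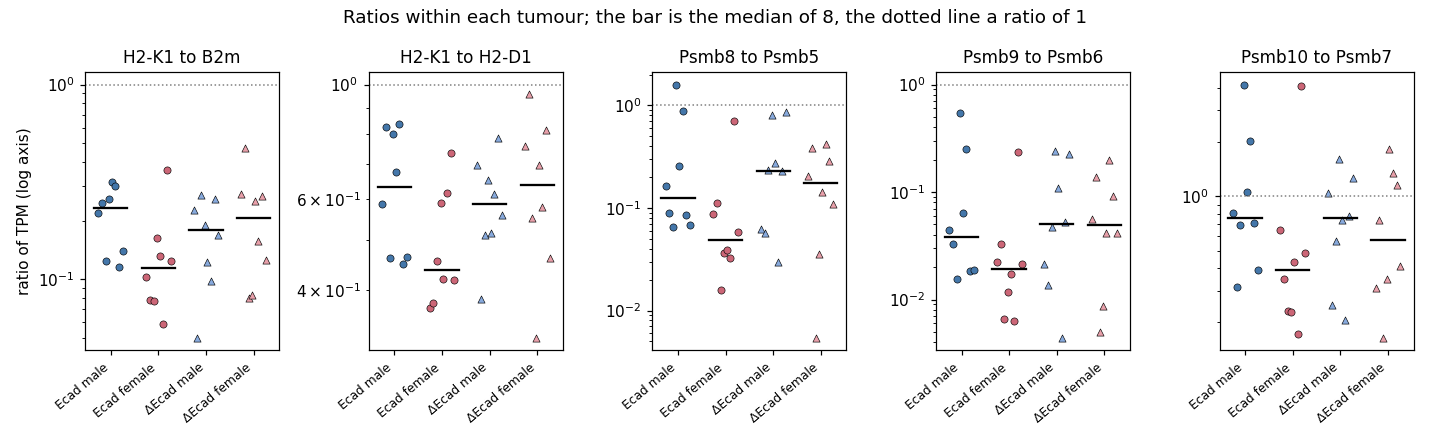
Ratio of TPM of each immunoproteasome subunit to the constitutive subunit it replaces, and of H2-K1 to B2m and to H2-D1 (vertical axes, log scale), as 1 point per tumour by group with a bar at the median. Psmb9 to Psmb6 stays below 1 in all tumours, and the groups overlap for all 5 ratios.

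Across the 32 tumours the 10 genes varied together. All 45 pairs were positively correlated on the log2 CPM scale, with Pearson's r from 0.569 to 0.968 (median 0.801), and all 45 passed in both Pearson's and Spearman's form after adjustment over the 45 (largest adjusted p 0.00055 for r, two-sided permutation tests). The share that would pass among all genes is not given, here or for the marker scores below. The tightest pair was the heavy chains, H2-K1 with H2-D1 (r = 0.968, rho = 0.955, each with p = 1e-05, the smallest that 100000 permutations can give), followed by Psmb8 with Psmb9 (r = 0.963, rho = 0.964). Within the groups of 8, r was 0.959 to 0.981 for the heavy chains and 0.956 to 0.982 for Psmb8 with Psmb9. Leaving out the 2 tumours farthest from the median of the first gene gave 0.955 and 0.970.

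The transporter subunits were nearly as close, Tap1 with Tap2 at r = 0.917 (rho = 0.891), and Tap1 correlated with Psmb9, its neighbour across the shared promoter, at r = 0.909 (rho = 0.915). Exons of both overlap by 212 bases, so a small part of the reads may be counted for either. Nlrc5 was closest to Tap1 (r = 0.900, rho = 0.898), ahead of Psmb9 (r = 0.849), H2-K1 (r = 0.819) and H2-D1 (r = 0.771). Its weakest relations were with B2m (r = 0.569, rho = 0.583) and Psmb10 (r = 0.576, rho = 0.566). For Nlrc5 with Psmb10, r fell to 0.468 without the 2 farthest tumours and was 0.234 within ΔEcad males. B2m had the lowest median r with the other genes, 0.720, and Psmb9 the highest, 0.860. With each value centred on its group mean, the 45 values of r lay between 0.558 and 0.968, and without the 4 tumours named above between 0.546 and 0.974, with 45 of 45 passing each time.

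**Figure D5:**
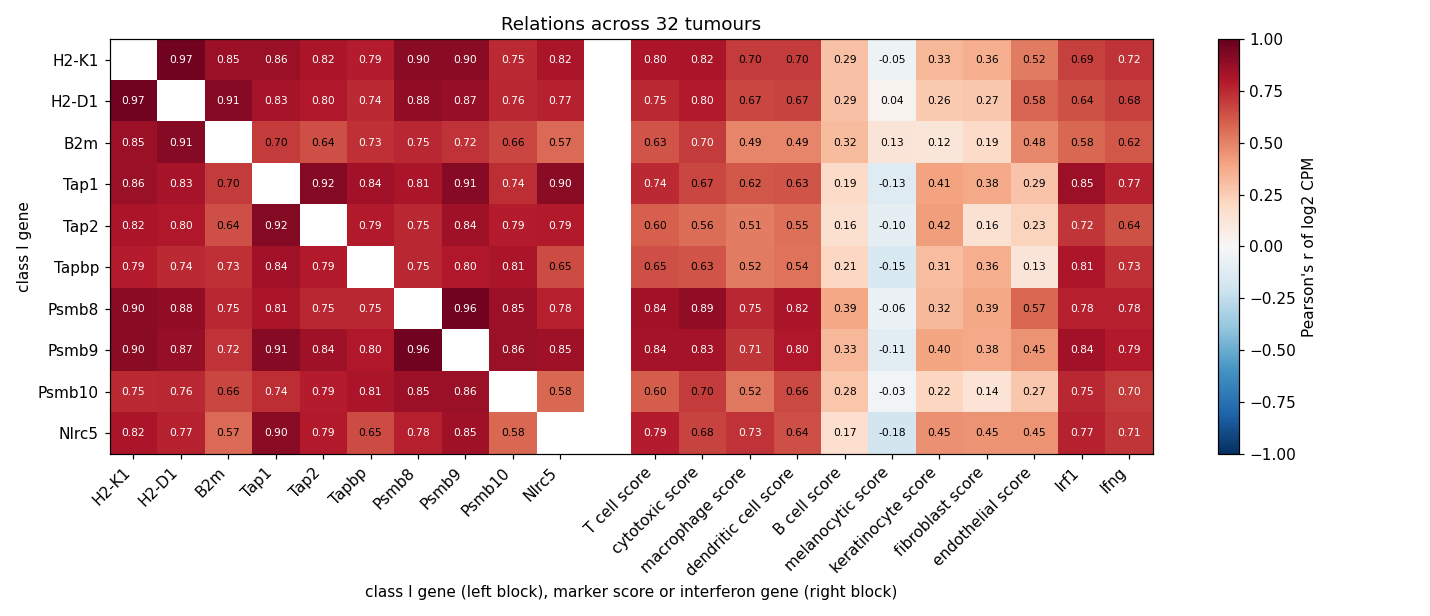
Pearson's r over 32 tumours between the log2 CPM of the 10 genes, and of each gene with 9 cell type marker scores and with Irf1 and Ifng. Values among the genes run from 0.569 to 0.968, those with the cytotoxic score from 0.562 to 0.888 and those with the melanocytic score from -0.182 to 0.130.

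The 10 genes also followed the markers of immune cells. Each marker score is the mean log2 CPM of the listed genes, and 120 relations were tested with 9 scores and with genes of interferon signalling, of which 85 passed for Pearson's r and 98 for Spearman's rho. The T cell score (Cd3e, Cd3d, Cd3g, Cd8a, Cd4) correlated with all 10 genes (r = 0.597 to 0.843), as did the cytotoxic score (0.562 to 0.888), the macrophage score (0.492 to 0.754) and the dendritic cell score (0.492 to 0.815). Psmb8 had the highest value for the T cell score, r = 0.843 (rho = 0.862), and for the cytotoxic score, r = 0.888 (rho = 0.868), each with p = 1e-05, the smallest that 100000 permutations can give, and an adjusted p of 3.43e-05. Within the groups the r of Psmb8 with the cytotoxic score was 0.919 and 0.837 in Ecad males and females, and 0.891 and 0.908 in ΔEcad males and females, and without the 2 farthest tumours it was 0.821. Other genes had lower values within single groups. Within Ecad females, Tap2 had r = 0.0888 with the T cell score and 0.232 with the cytotoxic score. With the cytotoxic score, Tapbp had 0.377 within ΔEcad females and Psmb10 0.417 within ΔEcad males. B2m had weaker relations with the myeloid scores, with r = 0.492 for macrophages, which was -0.04 within Ecad females and 0.836 within ΔEcad females.

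Other cell types gave fewer relations. The melanocytic score passed with 0 of 10 genes (r = -0.182 to 0.130), the B cell score with 1 of 10 (0.161 to 0.386), and the keratinocyte and fibroblast scores with 4 of 10 each. For Spearman's rho the melanocytic score passed with 2 of 10 genes and the B cell score with 8. Both melanocytic values were negative, with rho = -0.430 for Tap1 and -0.378 for Nlrc5 (adjusted permutation p = 0.021 and 0.042). The melanocytic score of ΔEcad male 7 was 0.22, and the next lowest was 7.90 in ΔEcad female 8. Leaving out the 2 farthest tumours, r with this score lay between -0.440 (Tap1) and -0.060 (B2m). The endothelial score passed with 6 of 10 (0.131 to 0.584). For the endothelial score the values within groups ranged widely: Psmb8 had r = 0.860 within ΔEcad females, where ΔEcad female 3 is nearly without endothelial markers (0.48 TPM summed), and r = 0.0978 within Ecad males. In all, 79 of 120 relations passed with values centred on group means and 80 without the 4 tumours. Depth and RNA composition are shared by the genes of a tumour, and their part in these relations was not tested.

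Of the interferon genes, Irf1, an interferon-induced transcription factor, correlated with all 10 genes (r = 0.577 to 0.854), as did Ifng, which encodes interferon-γ (0.619 to 0.793). Within ΔEcad males r with Ifng ran from -0.131 for Psmb10 to 0.533 for Tap1, and within the other groups from 0.461 to 0.964. Ifng was scarce, with a highest level of 3.20 TPM in Ecad male 4, and was listed at 0 in 4 Ecad males and 6 Ecad females, and in 1 tumour of either sex in ΔEcad. Among Ecad females only Ecad female 7 (1.48 TPM) and Ecad female 4 (0.09 TPM) were above 0. The values of r with Ifng within that group therefore rest mainly on Ecad female 7. Irf1 ranged from 4.86 to 213 TPM with group medians of 20.6 to 36.7 TPM. Ecad male 4 held the highest level of both genes.

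A wider list of 34 genes of the route held 33 that could be tested, all but Ifng, and none was called in any of the 5 comparisons. In females the list had 0 genes with an unadjusted p under 0.05 for genotype, against 15.3% of all genes. In males it had 4 of 33, against 10.2% of all genes, all with values above 0: Ifngr2, a chain of the interferon-γ receptor (0.77, SE 0.21, edgeR adjusted p = 0.365), Pdia3, a thiol oxidoreductase of the loading complex (0.72), and the constitutive subunits Psmb7 (0.64) and Psmb6 (0.62). Between the sexes in Ecad tumours there were 4, against 16% of all genes, with Canx, the chaperone calnexin, at 0.89, and Tapbpl, a tapasin-related editor (-1.16), Psme1, a subunit of the proteasome activator (-0.76), and H2-M2 (-2.93) below 0. There were 2 between the sexes in ΔEcad tumours, against 8.81% of all genes, Ifngr2 (-0.63) and Psmb7 (-0.55), and 3 for the interaction, against 17.7% of all genes, Pdia3 (-1.08), Canx (-1.07) and Ifngr2 (-0.65). The list's median log2 fold change was 0.12 for females, -0.01 for males, -0.23 between the sexes in Ecad and -0.24 in ΔEcad tumours.

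As a description, with no test, the list was divided by its likeness to the 10 genes, measured as r over 32 tumours with the mean of their standardized levels. Of the other heavy chain genes, the closest were H2-T23 at 0.941, H2-T22 at 0.908 and H2-Q4 at 0.904, while H2-M3, which shares the paired promoter pattern, was at 0.871, and the lowest were H2-M2 at 0.675 and H2-Q10 at 0.584. The proteasome activator subunits Psme1 (0.741) and Psme2 (0.736) and Tapbpl (0.756) lay between these, while Psme3 was at -0.374. The constitutive catalytic subunits Psmb5 (-0.02), Psmb6 (-0.00) and Psmb7 (-0.244) and the general chaperones Calr (-0.149) and Canx (-0.342) were near or below 0. Of the factors that act with Nlrc5, Rfxank was at 0.519, Rfx5 at 0.340 and Nfya at -0.441. H2-Q4 ranged from 0.46 to 1055 TPM and H2-T23 from 14.9 to 1793 TPM.

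Outside these lists, the genes most like the 10 among 17674 compared were Il18bp (r = 0.921), AW112010 (0.914), Gm11131 (0.908), Igtp (0.905), Ccl5 (0.901), Slamf8 (0.899), Dhx58 (0.896), H2-DMa (0.893), Phf11b (0.885) and Irf9 (0.873). Il18bp encodes the secreted inhibitor of interleukin-18, Igtp an interferon-inducible GTPase, Ccl5 a chemokine that attracts T cells, H2-DMa a chain of the class II peptide editor and Irf9 a transcription factor of type I interferon signalling. Some of them spanned wide ranges, with Igtp at 3.67 to 625 TPM (median 16.9), Ccl5 at 0.74 to 202 TPM (median 9.995) and Il18bp at 1.90 to 126 TPM (median 6.72). Irf9 had a narrower range than any of the 10 genes, 6.13 to 56.9 TPM (median 20.3). These genes were picked for the size of r, and the points share library, depth and cell content.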

How the data were processed

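Polyadenylated RNA of 32 primary mouse melanomas (8 per group) was sequenced as stranded paired-end libraries from samples that passed a limit of RNA integrity. The authors mapped and counted the reads with STAR on mm10 and deposited raw counts per gene and TPM values. Their notes name FastQC 0.11.5 and the build GRCm38.p5, and their methods name ComBat for batch correction where applicable, but not whether it was used on these tumours. The raw counts are whole numbers, and for 996 genes the deposited TPM followed from them within 0.0685%.

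The 10 members, the pathway list and the marker lists were chosen with earlier results of these data known. Of 50600 gene identifiers, 50376 had a symbol in GENCODE vM21. Counts were analysed with edgeR 4.0.16 (R 4.3.3): expression filter by group, TMM factors and a robust quasi-likelihood fit of all 32 tumours in 4 groups, with Benjamini-Hochberg adjustment over 17717 genes. Genes were called where the log2 fold change lay beyond 1 in either direction with an adjusted p under 0.05. TPM ratios were compared by exact two-sided permutation (12870 splits), or 100000 permutations for the interaction. Relations used log2 CPM (prior count 1) and 100000 permutations. Named genes were the 10 members, the pathway list and the 10 other genes most correlated with the members' mean. Alternatives were DESeq2 1.42.0, limma 3.58.1 (voom, and log2(TPM + 1)), other size factors, no filter, covariates made of marker scores, a replicate block, and fits without 1 tumour at a time or without 4 tumours. The last was added for the relations after seeing the data. 1 gene of the lists is not reported here. Scripts were tested on simulated data. Nothing says whether tumours of a group came from separate mice, so p-values measure the spread between these samples.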

Additional observations from a re-analysis of the deposited data

Results flagged for a closer look

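Of 60 sets of 8 tumours examined (10 genes and 5 ratios in 4 groups), 10 held a tumour set apart from the other 7 by Dixon's test at 95%, where chance gives about 1 in 20. They come from 2 tumours. The sets share tumours and hold genes that vary together, so 10 of 60 cannot be read against that chance share. Ecad female 7 was above the other Ecad females for H2-K1 (log2 CPM 11.17 against 7.27 to 8.27), H2-D1 (11.59 against 8.19 to 9.62), Tap1 (7.16 against 2.53 to 4.67), Psmb9 (6.29 against 0.35 to 2.90) and Psmb10 (7.11 against 3.44 to 4.94). Its log2 ratios of Psmb9 to Psmb6 (-2.07) and of Psmb10 to Psmb7 (2.03) were also above those of the other 7. ΔEcad female 3 was below the other ΔEcad females for H2-D1 (log2 CPM 6.51 against 9.04 to 10.62), B2m (7.71 against 9.33 to 10.74) and Psmb8 (-0.20 against 3.62 to 6.50). Its Psmb8 value stands for 39 counts, and its summed T cell and cytotoxic markers were listed at 0 TPM.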

How the results depend on the processing

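No member was called in any of 42 alternative settings, and the smallest adjusted p was 0.0723 (Tapbp, -1.35, females against males in Ecad, DESeq2). Of 2090 member values under alternatives, 67 turned sign, the largest of them from a main size of 1.09. Of the 42 settings, 32 left out 1 tumour, and a value hardly moves where that tumour lies outside the groups compared. The 2090 therefore include many values that could not turn. The genes that turned sign in any setting were 5 in females and 9 in males. They were 4 between the sexes in Ecad, 6 between the sexes in ΔEcad and 6 for the interaction. The 45 relations among members kept their count of 45 in every setting run, and the 85 with other measures came to 79 and 80. With 8 tumours a group, SEs of the members reached 1.21.

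The number of genes called depended on the setting, and the cause was not tested. For genotype in females, 213 genes were called, against 1281 with DESeq2, 1 with voom, 1 on log2(TPM + 1), 322 with DESeq2's size factors, 555 without a filter, 1 with only the tumours compared, 3 with T cell and macrophage scores, 11 with keratinocyte and melanocytic scores and 112 without the 4 tumours. For genotype in males it was 0, against 21 with DESeq2 and 1 with keratinocyte and melanocytic scores. Between the sexes in Ecad it was 9, against 1023 with DESeq2, 92 with voom and 14 with keratinocyte and melanocytic scores, and in ΔEcad 7, against 24 with DESeq2 and 0 with only the tumours compared. For the interaction it was 0, against 1225 with DESeq2, 201 with its size factors, 284 without a filter and 1 with keratinocyte and melanocytic scores. Leaving out 1 tumour gave 1 to 695 calls in females, 8 to 21 between the sexes in Ecad and 0 to 848 for the interaction.

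Replicate numbers did not pair the tumours: over 48 same-number pairs the correlation was -0.547 to 0.425 (median 0.0427), and 1 of 32 tumours correlated best with its own number. With the number as a replicate block, 1 gene was called for genotype in females, no member was called, and Psmb9 in males came to 0.18.

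Member log2 fold changes that changed sign were these. In females, B2m was 0.29 with voom and 0.0380 without the 4 tumours, H2-K1 -0.10, H2-D1 -0.27 and Tapbp -0.0560 with T cell and macrophage scores, and Tapbp -0.19 with keratinocyte and melanocytic scores. In males, H2-K1 was -0.13 with voom and -0.30 on log2(TPM + 1), H2-D1 -0.20 on log2(TPM + 1), Psmb10 0.0085 with T cell and macrophage scores and 0.0073 without the 4 tumours, and Psmb9 0.0381 with keratinocyte and melanocytic scores. Between the sexes in Ecad, T cell and macrophage scores gave H2-K1 0.12, H2-D1 0.23, B2m 0.25 and Tap2 0.13. In ΔEcad, Psmb9 was 0.17 with voom, Psmb8 0.24 and Psmb9 0.46 with T cell and macrophage scores, and Tap1 -0.20, Tap2 -0.18 and Nlrc5 -0.28 with keratinocyte and melanocytic scores. For the interaction, H2-D1 was 0.50 with voom and 0.39 on log2(TPM + 1), and H2-K1 -0.28 with T cell and macrophage scores and -0.0626 with keratinocyte and melanocytic scores. Without the 4 tumours, the log2 ratio differences in males were 0.0944 for Psmb8 to Psmb5 and 0.0218 for Psmb9 to Psmb6, and between the sexes in ΔEcad 0.0901 for Psmb9 to Psmb6 and 0.12 for Psmb10 to Psmb7.

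With 1 tumour left out, values crossed 0 in females for B2m (-0.34 to 0.11), H2-D1 (-0.10 to 0.74), Psmb10 (-0.0061 to 0.99) and Tapbp (-0.0420 to 0.42). In males they did for B2m (-0.26 to 1.28), H2-D1 (-0.54 to 1.04), H2-K1 (-0.83 to 0.80), Psmb10 (-0.49 to 0.50), Psmb8 (-1.20 to 0.40), Psmb9 (-0.84 to 0.57), Tap1 (-1.02 to 0.24), Tap2 (-0.75 to 0.11) and Tapbp (-0.69 to 0.35). Between the sexes they did in Ecad for B2m (-0.80 to 0.17) and in ΔEcad for H2-K1 (-1.12 to 0.13), Psmb8 (-0.70 to 0.21), Psmb9 (-0.51 to 0.33), Tap1 (-0.25 to 0.68) and Tap2 (-0.20 to 0.45). For the interaction they did for B2m (-1.46 to 0.0744), H2-D1 (-1.02 to 0.56), H2-K1 (-0.48 to 1.34), Psmb10 (-0.35 to 1.16), Psmb8 (-0.0086 to 2.58) and Tapbp (-0.22 to 0.91). The tumours behind these extremes were mostly Ecad male 4, Ecad female 7, ΔEcad male 8 and ΔEcad female 6.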
